A study of Arabidopsis thaliana with 4 samples.

Results

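Leaf transcripts of Arabidopsis thaliana plants deprived of potassium were set directly against those of plants deprived of phosphate, with 1 Affymetrix array for each, out of 4 arrays in the series. Both arrays held RNA from rosette leaves of ecotype Col-5 at growth stage 6.10, 28 h after the nutrient was taken away. Both sets of plants had grown on sucrose-containing agar medium, with 16 h of light, until day 21. They then grew in hydroponics at 24 °C and 80% humidity in constant light. KH2PO4 and KOH were left out of the potassium-free solution, and 0.27 mM calcium dihydrogen phosphate was added to it. The phosphate-free solution was made without KH2PO4, with 0.125 mM potassium sulphate added. KH2PO4 was therefore missing from both, and the solutions also differed in calcium and sulphate. The labels do not say how many plants went into a sample. For the phosphate-depleted sample, title and source name carry different letters, and its treatment text was followed. The signals of the nitrate-depleted array, whose solution had 4 mM extra calcium sulphate, are given beside some genes to show where another depleted array lay.

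Potassium is the main inorganic cation of plant cells. It sets turgor, balances charge across membranes and activates many enzymes, and roots take it up through channels and high-affinity carriers. Phosphate is built into nucleic acids, membrane lipids and ATP, and plants short of it are known to release phosphatases, to replace phospholipids with galactolipids and to move phosphate out of older leaves. In Arabidopsis, shortage of potassium is known to engage reactive oxygen species and jasmonate signalling.

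The comparison covered 8247 probe sets, sets of short oligonucleotides made to report a transcript or several alike ones. The platform annotation named 1 gene for 3794 of them, several for 70 and none for 4383. Signals under 25 were set to 25, called the floor below, and 3807 probe sets lay above it on both arrays. With 1 array for each depletion there is no replicate spread, no test and no error for any single value. Where an array lay at the floor, the ratio is only a lower limit, marked by "at least". Leaf RNA is a mixture, so fewer cells of a type and less RNA per cell cannot be told apart.

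The arrays differed in several technical measures. Mean background was 52.95 on the potassium-depleted and 51.51 on the phosphate-depleted array. The 9 hybridisation controls added to each sample were 1.02 to 3.04-fold brighter on the potassium-depleted array, with a median of 1.55-fold. The 3 control probe sets for glyceraldehyde-3-phosphate dehydrogenase (GAPDH) were 2.04 to 5.01-fold brighter there, and their ratio of 3′ to 5′ signal was 2.02 against 1.26. The same ratio for ubiquitin was 2.67 against 2.75. The part of labelling or RNA quality in the results was not tested. Of the 22 fixed rosette leaf markers 7 were named, and all 7 lay above the floor on both arrays, with summed signals of 17562 on the potassium-depleted and 25705 on the phosphate-depleted array. These 7 are also members of the photosynthesis list described below, so the marker sum and that list are not separate observations. Of 19 root markers 1 was matched by its symbol, the beta-glucosidase gene BGLU21, at 377.2 against 5.3. The peroxidase gene AT5G17820, a root marker listed under another symbol, was missed by this matching. It stood at 23.8 against 30.9, with the potassium-depleted signal under the floor and the other just above it. Signals so near the floor cannot be ordered, so this gene gives no direction beside BGLU21. A difference in root material between the samples was not tested. Of 8 flower markers 1 was named, AT5G07230, at 4.4 against 4.8, under the floor on both. None of 10 seed markers was named.

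Transcripts higher without potassium outnumbered those lower, and the higher ones reached larger ratios. At least 2-fold higher on the potassium-depleted array were 171 probe sets (2.07% of 8247), and at least 2-fold lower were 99 (1.20%). At 4-fold the numbers were 32 higher and 2 lower, and at 8-fold 6 higher and 0 lower. Most transcripts were close, since 80.1% of the probe sets above the floor on both arrays lay within 1.5-fold and their median log2 ratio was 0.01. Among probe sets above the floor on both arrays, 143 higher and 89 lower, the excess of higher ones lay among dim and medium signals. It was 69 higher against 29 lower for mean signals of 25 to 100 and 58 against 43 for 100 to 400. At 400 and above it was 16 against 17, and there the median log2 ratio was -0.11. Averaged over probe sets, 1699 named genes had a signal above the floor on at least 1 array, with a median log2 ratio of 0.03. Of these genes 58 (3.41%) were at least 2-fold higher and 32 (1.88%) at least 2-fold lower, and these percentages are the background for the gene lists below.

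**Figure D1:**
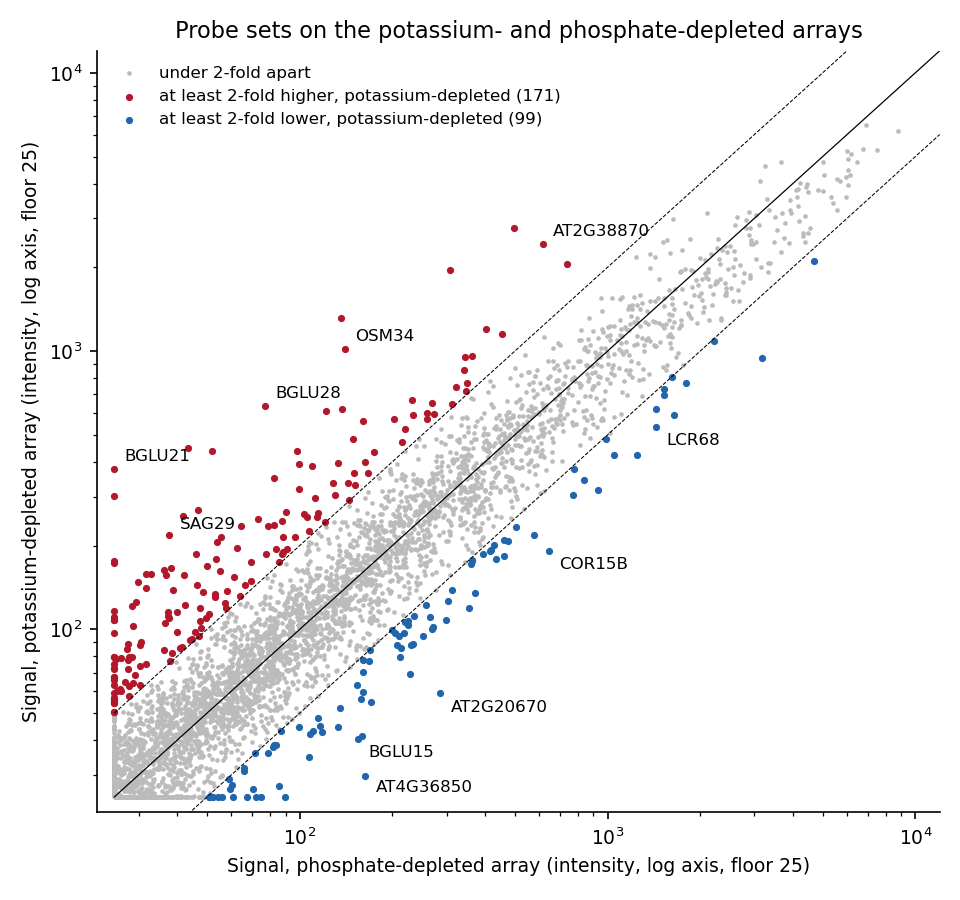
Signal of each probe set on the potassium-depleted array (vertical log axis) against the phosphate-depleted array (horizontal log axis), with signals under 25 drawn at 25, equality as a solid line and 2-fold limits as dashed lines. Red marks the 171 probe sets at least 2-fold higher on the potassium-depleted array and blue the 99 at least 2-fold lower. The red points spread further from the line of equality, up to BGLU21 on the floor of the phosphate-depleted array.

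The higher transcripts included those of several secreted defence proteins. OSM34, which encodes an osmotin-like protein of the PR-5 family, had a signal of 1018 on the potassium-depleted array, against 139.9 on the phosphate-depleted array, 7.28-fold higher. AT2G38870, a serine protease inhibitor gene of the potato inhibitor I type, was among the brightest of the higher genes, at 2420.4 against 615.1, 3.93-fold higher. AT4G16260, a gene of the beta-1,3-glucanase family, whose members cut a polymer of fungal walls and of callose, was 2.99-fold higher at 1204.2 against 402.5. On the nitrate-depleted array these genes lay at 84.4, 719.5 and 114.4, so for all of them the potassium-depleted array was the highest of these arrays. For AT4G16260 the phosphate-depleted array also lay well above the nitrate-depleted one.

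Chitinases, which cleave the chitin of fungal walls, included members that differed and members that did not. Of 24 family loci 16 were named and 6 lay above the floor on at least 1 array. Of these, 2 were at least 2-fold higher and none lower, with a median log2 ratio of 0.68. AT2G43610 had a signal of 157.6 against 32.9, 4.79-fold higher, and ChiC one of 245.7 against 87.8, 2.80-fold higher. The brightest member, the gene the annotation calls CHI (AT2G43570), stood at 1122.5 against 620.8, 1.81-fold. Its neighbour AT2G43590 lay the other way, with a log2 ratio of -0.64. The chitinase difference was thus not one of every member.

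Lectins and plant defensins were each read by few genes. Both jacalin-related lectin genes above the floor, of 3 named, were higher. These lectins bind sugars. JAL23 had a signal of 158.5 against 31.6, 5.02-fold higher, and JAL34 one of 125.8 against 29.5, 4.26-fold higher. The defensins, small cysteine-rich antimicrobial peptides, had none of 3 genes at least 2-fold higher and 1 lower, with a median log2 ratio of 0.34. LCR69 stood at 401.3 against 316.4, a log2 ratio of 0.34. LCR67 stood at 34.2 against 1.1, a log2 ratio of at least 0.45. LCR68 had a signal of 535.8 on the potassium-depleted array against 1432.9 on the phosphate-depleted array, 2.67-fold lower, with the nitrate-depleted array at 578.5. For this gene the phosphate-depleted array was the high one.

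Class III peroxidases, secreted haem enzymes that make and use hydrogen peroxide and cross-link wall polymers, held 5 of the 58 higher genes. Of 73 family loci 46 were named and 22 lay above the floor on at least 1 array. Of these 22, 5 were at least 2-fold higher and 1 was lower, with a median log2 ratio of 0.30, which ranged from 0.23 to 0.76 over the alternatives. The 2 probe sets of AT2G38380 read 348.8 and 148.5, against 82.3 and 29.8, which is 4.24-fold and 4.98-fold higher. It has a close neighbour of like sequence, AT2G38390, so the probe sets may read both. AT3G21770 was 2.93-fold higher at 89.8 against 30.6, while its other probe set lay below the floor on both arrays. AT5G64100 (2.45-fold), AT4G36430 (2.42-fold) and AT5G39580 (at least 2.37-fold) were the other higher members, all under 100 on the potassium-depleted array. AT1G71695 ran against them, with 94.8 against 251.8, 2.66-fold lower. The brightest member, PRXR1, was 1.47-fold lower at 2551.5 against 3738.

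Other antioxidant genes showed no common direction. Of 6 above the floor none was at least 2-fold higher and 1 was lower. TAPX, which encodes the ascorbate peroxidase of the thylakoid membrane, read 59.7 and 70.2 with its 2 probe sets, against 160.4 and 160.2, 2.69-fold and 2.28-fold lower. GR1, a glutathione reductase gene, stood at 578.5 against 309.4, 1.87-fold, and SAPX, of the stromal ascorbate peroxidase, had a log2 ratio of 0.11.

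Beta-glucosidase genes gave some of the largest ratios in either direction. BGLU21, named above as a root marker, was at least 15.1-fold higher on the potassium-depleted array. BGLU28, another beta-glucosidase gene, had a signal of 633.8 against 77.4, 8.19-fold higher, and lay at 3.4 on the nitrate-depleted array. Beta-glucosidases split glucose from stored conjugates such as glucosinolates and coumarins. BGLU15 lay the other way, with 40.5 on the potassium-depleted array against 155.2 on the phosphate-depleted array, 3.83-fold lower, with 5.2 without nitrate. In all, 6 of 9 named members lay above the floor, 2 higher and 1 lower, with a median log2 ratio of 0.10. This median was not stable, at 1.42 with a floor of 50 and -0.08 over members above the floor on both arrays. BGLU25, the brightest on the phosphate-depleted array, was nearly equal at 615.4 against 648.8.

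AT4G17470, a palmitoyl protein thioesterase family gene, had a signal of 436.3 against 52.1, 8.37-fold higher. AT1G09500, which encodes an alcohol dehydrogenase-like protein, was higher on both probe sets, with 610.9 against 121.6 and 235.5 against 78.8, 5.02-fold and 2.99-fold. Berberine bridge enzyme-like proteins are secreted oxidases, some of which are known in Arabidopsis to oxidise wall-derived oligosaccharides. Of 27 family loci 12 were named and 6 lay above the floor, with 2 higher, none lower and a median log2 ratio of 0.28, which ranged from 0.24 to 0.94 over the alternatives. AT1G30700 had 121.7 and 115.1 on its probe sets, against 28.6 and 37.4, and AT4G20860 had 140.7 and 105.4, against 31.8 and 36.5. The gene-level ratios were 1.86 and 1.84 on the log2 scale. The members AT4G20820 and AT4G20840, close to AT4G20860 by locus number, had log2 ratios of -0.10 and -0.70.

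SAG29, also called SWEET15, encodes a sugar exporter that is induced in senescing leaves. It had a signal of 217.7 on the potassium-depleted array, against 37.7 on the phosphate-depleted array, 5.77-fold higher, and 25.7 without nitrate. The other genes of the senescence and autophagy list were closer. Of 10 above the floor, 1 was higher and none lower, and the median log2 ratio was 0.27. WRKY6, a transcription factor gene of senescence, stood at 101.6 against 56, 1.81-fold. The ATG8 genes, whose proteins build the autophagosome membrane, had log2 ratios between -0.23 (ATG8F) and 0.57 (APG8A). APL3, of starch synthesis, had a log2 ratio of 0.84.

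Of the arginine synthesis genes 2 were higher and the others were not. AT4G24830, the argininosuccinate synthase gene, had 88.8 against 27.6, 3.22-fold higher. AT4G17830, which encodes an N-acetylornithine deacetylase-like protein, had 131.8 and 77.6 on its probe sets, against 63.8 and 27.7, 2.07-fold and 2.80-fold higher. OTC, of ornithine carbamoyltransferase, was level at 885.5 against 888.9. Over the 6 genes above the floor the median log2 ratio was 0.02, with 2 higher and none lower, and it ranged from 0.01 to 0.83 over the alternatives. This list was added after the signals were seen. The lysine breakdown gene AT4G33150, picked after its values were seen, was 2.52-fold higher at 154.9 against 61.4.

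Genes of dehydration, cold and abscisic acid divided. Of 8 above the floor 2 were higher and 1 lower, with a median log2 ratio of 0.27. LTI30, a dehydrin gene, had a signal of 103 against 28.8, 3.58-fold higher. AT2G46140, of a late embryogenesis abundant protein, was 2.24-fold higher at 64.4 against 28.7. COR15B, which encodes a cold-regulated protein that protects chloroplast membranes, went the other way with 192.1 on the potassium-depleted array, against 644.6 on the phosphate-depleted array, 3.36-fold lower. Its signal of 742.3 without nitrate shows the potassium-depleted array as the low one. KIN2 and COR47 had log2 ratios of -0.45 and 0.41. ALDH7B4, an aldehyde dehydrogenase gene of osmotic stress, was 2.31-fold higher at 743.3 against 321.9.

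Several further higher genes belong to lipid-related and little-known families. AT1G54010, a GDSL lipase family gene, had 386.3 against 110, 3.51-fold higher. AT4G22610 and AT4G22470, of the lipid transfer and protease inhibitor family, were 3.10-fold and 3.00-fold higher, each with a phosphate-depleted signal just above the floor. AT4G39670, of a glycolipid transfer family, was 2.87-fold higher, and AT1G03220, an aspartyl protease family gene, 2.75-fold at 951.2 against 345.3. CCOAMT, of a caffeoyl-CoA O-methyltransferase, was at least 3.18-fold higher, and AT2G34930, of a leucine-rich repeat family linked to disease resistance, at least 3.18-fold. The protein kinase-like gene AT4G18950 and PRL, of a DNA replication protein, were the closest above the limit among genes measured on both arrays, at log2 ratios of 1.06 and 1.05. Those closest under it were PDC2, of pyruvate decarboxylase, at 0.96 and AT2G32210 at 0.95.

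AT4G24340 and AT4G24350 encode phosphorylase superfamily proteins and neighbour each other, so their probe sets may share target. AT4G24340 had 176.3 against 1.4 on a probe set, at least 7.05-fold higher, with its other probe set under the floor on both arrays. The glycine-rich protein gene AT2G05540 was 3.73-fold higher at 156.9 against 42.1, and AT2G18690, of a membrane protein of unknown function, 3.81-fold at 205.7 against 54. AT2G05540 lay at 183.3 without nitrate, so there the phosphate-depleted array was the low one. AT4G27450 and AT3G15450, both of the aluminium-induced protein family and picked after their values were seen, were likewise lowest on the phosphate-depleted array, with 214.8 and 335.6 on the potassium-depleted, against 88.3 and 144 on the phosphate-depleted array, and 226.9 and 310.6 without nitrate.

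WRKY22, a transcription factor gene of immune signalling, was 2.28-fold higher at 59.9 against 26.3, and TBL26, of a wall acetylation family, 2.17-fold at 124.3 against 57.2. The phosphate-depleted signal of WRKY22 lay just above the floor, and its log2 ratio fell to 0.26 over the alternatives. AT4G02360, AT3G54880, AT4G23420 and AT2G17740 were at least 2.02 to 2.91-fold higher, with signals under 75 on the potassium-depleted array and under the floor on the phosphate-depleted array. AT3G16330 was 2.80-fold higher. A further group, picked after the values were seen, had gene-level log2 ratios between 1.07 and 1.38, with that of DI21 a lower limit. It held AT2G41810, AT2G25450, AT2G42760, AT1G05340, SDH1-1, ATSIK, AT2G36950, DI21, AT4G12545, AT4G38080, AT2G39420 and AT4G24350. AT2G25450, of an enzyme that modifies glucosinolate side chains, was the brightest of them at 855.2 against 340.9, and SDH1-1, of mitochondrial succinate dehydrogenase, stood at 262.7 against 114.9.

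**Figure D2:**
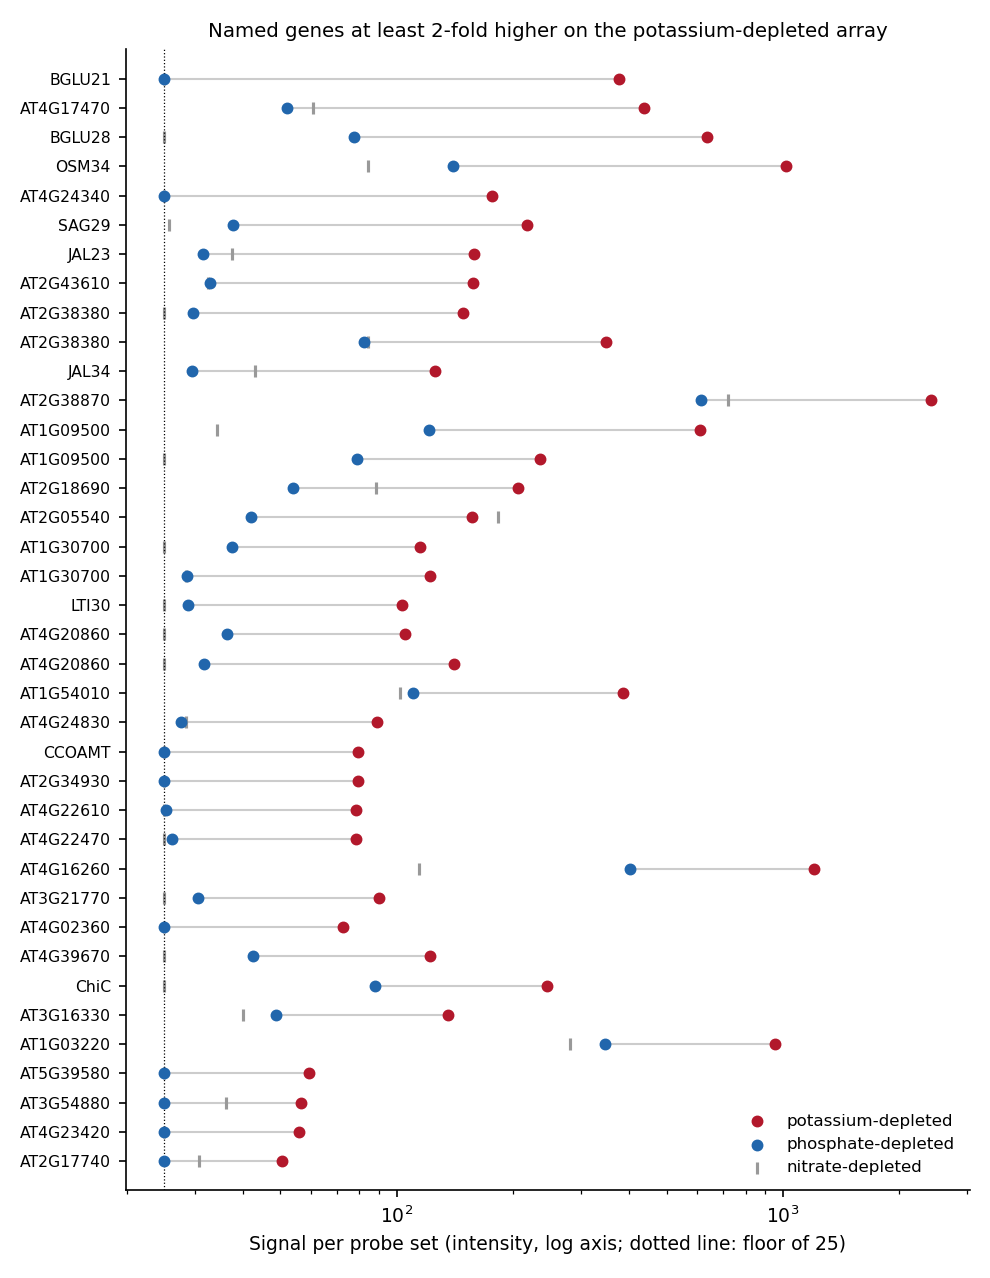
Signals (horizontal log axis, each row a probe set) of the named genes at least 2-fold higher without potassium than without phosphate, by the naming rule. The potassium-depleted array is in red, the phosphate-depleted in blue and the nitrate-depleted as a grey tick. Values under 25 are drawn on the dotted line. The grey tick of AT2G05540, at 183.3, lies right of its red point.

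On the lower side 2 probe sets passed 4-fold, and both belong to named genes. AT4G36850, of a PQ-loop repeat family of membrane proteins, had a signal of 29.8 on the potassium-depleted array, against 163.5 on the phosphate-depleted array, 5.49-fold lower, and 5.7 without nitrate. AT2G20670, of a family with a domain of unknown function (DUF506), was 4.84-fold lower at 59.1 against 286.3, and AT4G32480, of the same family, 2.68-fold lower at 100.4 against 268.9. On the nitrate-depleted array AT2G20670 had 99.8 and AT4G32480 had 31. The phosphate-depleted array was thus the highest of these arrays for these genes. For AT4G32480 the potassium-depleted array also lay well above the nitrate-depleted one.

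CC-type glutaredoxins, small redox proteins of a plant-specific class, had no higher member. Of 21 family loci 5 were named and 3 lay above the floor, 2 of them at least 2-fold lower, with a median log2 ratio of -1.05. AT1G03020 had a signal of 17.6 on the potassium-depleted array, against 89.5 on the phosphate-depleted array, at least 3.58-fold lower. AT2G30540 was 2.07-fold lower at 77.9 against 161.2, and AT2G47880 stood at 145 against 241.3, 1.66-fold.

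The brightest lower genes were CP5 and LCR68. CP5, which encodes a START-domain protein thought to bind lipids, had 421.9 and 318.2 on its probe sets, against 1049.6 and 933, 2.49-fold and 2.93-fold lower. Without nitrate it stood at 1385.9 and 1964.4, so the potassium-depleted array was the low one. AT3G16370, a GDSL lipase family gene, was 2.43-fold lower at 344 against 837.4 and AT3G52500, an aspartyl protease family gene, 2.67-fold at 79.3 against 211.8. With the families of AT1G54010 and AT1G03220 above, these families had genes on both sides.

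Signalling and growth genes were also among the lower ones. SAL2, an inositol polyphosphate phosphatase gene, had 52.2 on the potassium-depleted array, against 135.3 on the phosphate-depleted array, 2.59-fold lower, and 36.8 without nitrate. AT4G38690, a phospholipase C-like gene, was 2.49-fold lower at 86 against 213.8. STOMAGEN, whose peptide promotes the formation of stomata, was 2.13-fold lower at 31.1 against 66.1. IAA20, of an auxin response repressor, had 27.7 against 60.2 on a probe set and lay under the floor on its others. ATMAP65-6, of a microtubule-binding protein, stood at 24.9 against 52.4, and AT5G48460, of the actin-bundling fimbrins, was at least 2.18-fold lower.

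Transporter and wall genes completed the lower side. AT5G65687, of a major facilitator family, was 2.57-fold lower, and AT2G38330, of the MATE efflux family, 2.23-fold. AT4G17790, of a Golgi-associated membrane protein family, was lower at 207.9 against 473.9, 2.28-fold. AT2G05790, a glycosyl hydrolase gene of the beta-1,3-glucanase family, was 2.18-fold lower, opposite to AT4G16260, and AT4G23820, of the pectin lyase-like family, 2.19-fold. The lectin family gene AT1G78860 was at least 2.42-fold lower. Genes of little-known function, AT2G22080, AT1G61900, AT1G10020, AT2G47440, AT1G15260, AT2G21960 and AT3G02030, were 2.01 to 2.74-fold lower, the last of them as a bound. The closest inside the limit among genes measured on both arrays were AT2G21960 at -1.01 and AT1G15260 at -1.02. The expansin gene EXPA8, at 509.9 against 1016.7, and AT2G29310, at 49.9 against 99.5, lay just outside.

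**Figure D3:**
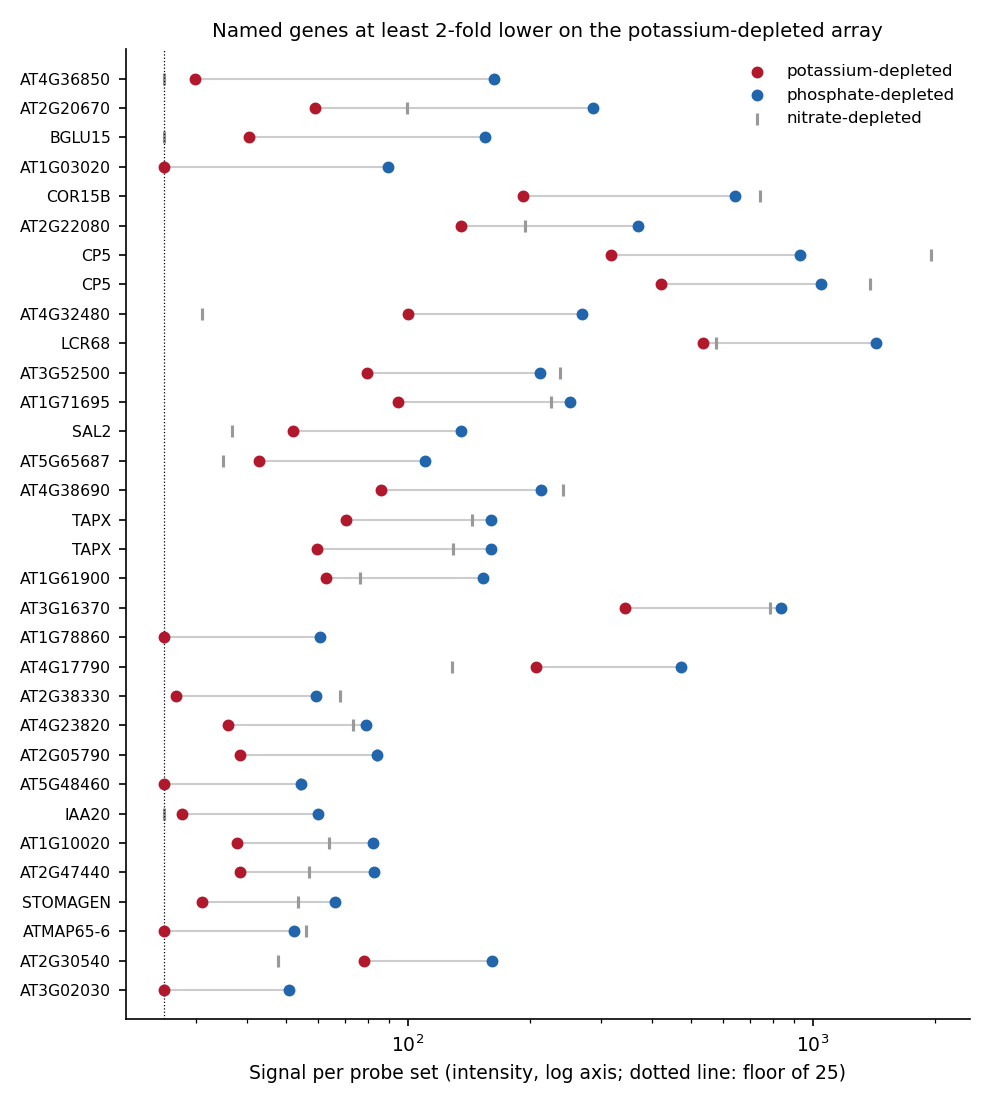
Signals (horizontal log axis, each row a probe set) of the named genes at least 2-fold lower without potassium than without phosphate, by the naming rule. The potassium-depleted array is in red, the phosphate-depleted in blue and the nitrate-depleted as a grey tick. Values under 25 are drawn on the dotted line. The grey ticks lie near the blue points for COR15B and TAPX and right of them for CP5. They lie near or left of the red points for AT4G36850, BGLU15, AT4G32480 and SAL2.

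Photosynthesis genes were lower together by amounts under 2-fold. All 8 genes of the list had log2 ratios below 0, between -0.71 and -0.22, with a median of -0.53 against 0.03 over all named genes. With loess centring RCA turned to 0.05, and the other 7 stayed below 0 under every alternative run. LHCB4.1, of the light-harvesting antenna, had a signal of 4219.6 against 5936.4, 1.41-fold lower. RCA, of Rubisco activase, stood at 3740.4 against 4481.6, 1.20-fold. PSAE-1, of photosystem I, was 1.63, 1.58 and 1.72-fold lower on its 3 probe sets. PSBY (-0.71) and PSBW (-0.66), of photosystem II, PSAN (-0.57), of photosystem I, LHCB4.3 (-0.35) and LHB1B2 (-0.22) had log2 ratios of the same sign. The carbon fixation and photorespiration genes PRK, HPR and SBPASE had log2 ratios of -0.85, -0.47 and -0.42. Probe sets with mean signals of 400 and above had a median of -0.11, as given above, and the highest signal of the array was 6485 on the potassium-depleted and 8792 on the phosphate-depleted array. Scalings that depend on signal level brought the photosynthesis median nearer to 0, to -0.35 with loess centring and -0.37 with quantile normalization.

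Genes closest to the removed nutrients could hardly be read. The potassium transport list had 2 named genes, CHX15 and CHX21, and the phosphate starvation list 1, LPR1, and all lay under the floor on both arrays. The list for the transport of water and other ions had 9 genes above the floor, none of them for a water channel. None of the 9 differed 2-fold, and their median log2 ratio was -0.18. The subunits of the vacuolar proton pump, which energises ion storage in the vacuole, lay between -0.42 (AVA-P1) and -0.02 (VHA-A3), and the zinc transporter gene ZIP9 at -0.96. The 4 genes of the nitrate transporter family lay between 0.04 and 0.87, the last being GTR1, of a glucosinolate transporter, at 361 against 197.7.

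Lists for other functions showed few genes past 2-fold. Of 14 UDP-glycosyltransferases, enzymes that attach sugars to hormones and secondary metabolites, none was, with log2 ratios from -0.93 (UGT72E1) to 0.91 (UGT87A2). None of 12 protein degradation genes was, with a median of -0.16, and none of 6 sulphate and glutathione genes, with a median of 0.07. Of 14 cell wall genes 1 was higher, of 6 WRKY genes 1 was higher, with a median of 0.30 (0.66 above the floor on both arrays), and of 6 auxin and brassinosteroid genes 1 was lower. The jasmonate list had 3 named genes and 2 above the floor, THI2.1 at 0.53 and LCR67 at 0.45, both lower limits and neither 2-fold. The touch and wounding list, which includes STZ, had 1 of 4 higher, which is WRKY22 again. Among 8 tubulin, actin and other commonly used reference genes none was 2-fold apart, with a median of -0.14, but TUB5 and TUB6 stood at -0.78 and -0.75.

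**Figure D4:**
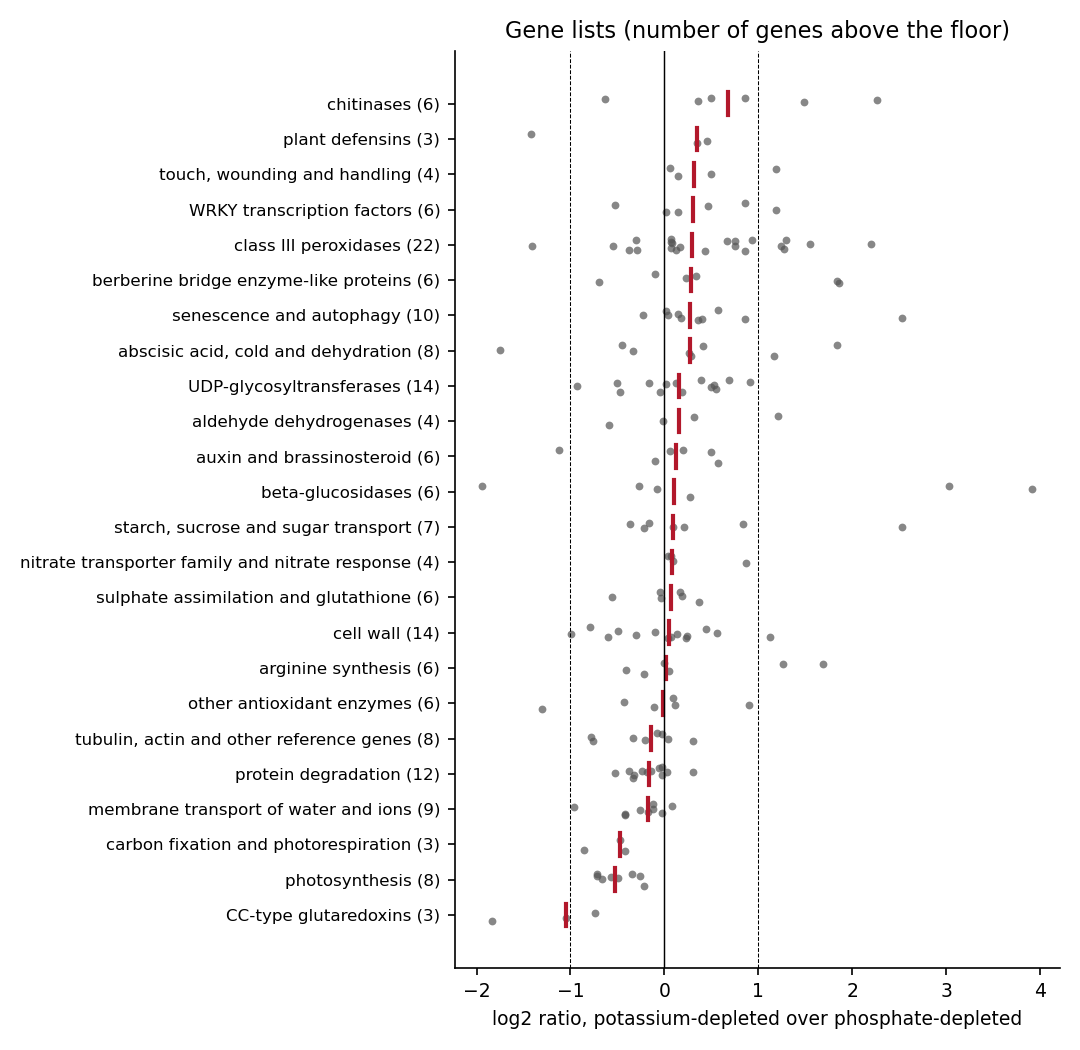
Gene-level log2 ratio of the potassium-depleted over the phosphate-depleted array (horizontal axis) for each gene above the floor in lists with at least 3 such genes, with the list median as a red bar and 2-fold limits as dashed lines. Chitinases have the highest median at 0.68 and CC-type glutaredoxins the lowest at -1.05, while most lists centre near 0 with single genes far out.

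Genes read by several probe sets give a check on the precision of a ratio within these arrays, beside the control probe sets given above. On the log2 scale the ratios of the 9 added controls lay between 0.03 and 1.60. Those of the 3 GAPDH probe sets lay between 2.04-fold and 5.01-fold. For 73 genes with at least 2 probe sets above the floor on both arrays, the ratios of a gene spread over a median of 0.24 on the log2 scale. Of 7 such genes with a probe set at least 2-fold higher, 6 had every probe set past that limit, and of 3 with a lower probe set, 2 did. AT4G33720, a PR-1-like gene picked after its values were seen, had lower limits only, at least 3.00-fold on a probe set at 74.9 and at least 1.10-fold on the other at 27.4, and was not counted as a higher gene. Probe sets of a gene share the RNA and the array, so this spread leaves out differences between plants and between hybridisations.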

How the data were processed

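The deposited table holds the authors' linear intensity values, with a signal for each probe set on each array. How the signals were computed and scaled is not given in the sources. The mean after trimming 2% at each end was 100.152 on the potassium-depleted and 100.167 on the phosphate-depleted array, so the deposited intensity values share a scale. The 50 Affymetrix controls were left out, signals under 25 were set to 25, and the log2 ratio of the potassium-depleted to the phosphate-depleted array was taken for each probe set. Probe sets were named through the platform annotation, and 3784 matched the RefSeq gene table of assembly TAIR10.1, giving 3602 genes. Ratios of a gene's probe sets above the floor on at least 1 array were averaged. The full-nutrient array entered no comparison. Python 3.11.15, numpy 2.4.6, pandas 2.3.3 and statsmodels 0.14.6 were used, and the counting was tested on simulated data.

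Genes were named by rule as the 25 largest ratios each way among genes measured on both arrays, the 10 brightest bounds each way, members of 29 gene lists and the 2 genes nearest the limit on either side. Further genes are marked in the text as picked after their values were seen. Members and lists were chosen with earlier results of these data known, and the peroxidase, chitinase, berberine bridge enzyme-like and glutaredoxin families were completed by locus after the signals were seen. Other floors, a pseudocount, other scalings, filters and fold limits were tried. A planned count of promoter motifs was not run because no promoter sequences were used here. The number of arrays limits the precision.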

Additional observations from a re-analysis of the deposited data

How the results depend on the processing

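No paired analysis was possible because each depletion has 1 array, and no array could be left out for the same reason. In place of 171 higher and 99 lower probe sets, a floor of 10 gave 262 and 169, a pseudocount of 25 gave 62 lower, probe sets with the plain ending alone gave 99 higher, a 1.5-fold limit gave 456 and 401, and a 3-fold limit 57 and 11. The other scalings, a floor of 50 and the filter on both arrays kept the counts within 1.5 times. Higher probe sets outnumbered lower ones under each alternative, and made up 57.0% of both with quantile normalization and 53.2% at the 1.5-fold limit, against 63.3%. Of the 90 genes past 2-fold, 55 passed with a floor of 50 and 57 with a pseudocount, which shrink dim ratios by construction. With quantile normalization 87 passed, with loess centring 88 and with median centring 90, and none changed direction. A floor or a pseudocount cannot reverse the ratio of a probe set, and median centring shifted each by 0.01 only. The lack of reversals under these settings is therefore no support for the directions. Of 187 list medians recomputed, 176 moved by less than 0.24. The others were the beta-glucosidases at 0.39 (floor of 10) and 1.42 (floor of 50), the berberine bridge enzyme-like proteins at 0.94 (floor of 10), 0.79 (floor of 50) and 0.57 (pseudocount), the class III peroxidases at 0.56 (floor of 50), 0.76 (above the floor on both arrays) and 0.55 (plain ending), arginine synthesis at 0.83 (floor of 50) and 0.63 (above the floor on both arrays), and the WRKY genes at 0.66 (above the floor on both arrays). The medians of the beta-glucosidases, other antioxidant enzymes, starch and sugar genes and cell wall genes lay on both sides of 0 over the alternatives. A higher floor leaves fewer genes in a list. The photosynthesis median stayed between -0.57 and -0.35. Signals near 25 cannot be ordered, so a bound may hide a larger ratio. Genes with their dimmer signal near the floor could also lose the 2-fold call. Over the alternatives the log2 ratio shrank to 0.26 for WRKY22, 0.37 for AT2G46140 and 0.56 for AT4G36430. On the lower side it shrank to -0.40 for STOMAGEN, -0.27 for IAA20 and -0.25 for AT2G38330.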

Other observations

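The largest ratios among probe sets that the annotation does not name, measured on both arrays, were as follows. Probe set 17014_s_at had a signal of 447 on the potassium-depleted array against 43.3 on the phosphate-depleted array, 10.3-fold higher, and 12574_at had 1309.8 against 136.3, 9.61-fold higher. On the lower side 14484_at had 41.5 against 159.7, 3.85-fold lower, and 17567_at had 948.3 against 3171.5, 3.34-fold lower. Of the 171 higher probe sets 105 had no single gene name, and of the 99 lower ones 64.

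The control probe sets for GAPDH, left out of the counts, had signals of 2383.7, 3486.6 and 1180.7 (3′, middle and 5′) on the potassium-depleted array, against 475.4, 1707.5 and 376.2 on the phosphate-depleted array, and 401.6, 1003.2 and 274.9 without nitrate. The ubiquitin controls were at 0.80 to 0.83 times, and the actin control at 0.90 times, the phosphate-depleted signal. The cause was not tested.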
